A study of Homo sapiens with 4 samples.

Results

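The D cyclins, their kinases CDK4 and CDK6, the CDK inhibitors and the pocket proteins RB1 and RBL2 were followed as a group of 10 genes, chosen by symbol from the 28814 genes of the count table. All 10 (CCND1, CCND3, CDK4, CDK6, CDKN1A, CDKN1B, CDKN2C, CDKN2D, RB1 and RBL2) had a row, and all 10 were among the 16862 genes that passed the filter on low counts. RNA-seq libraries came from 697 cells, a human leukaemia line of B-cell precursors. There were 2 libraries of cells given 1 µM MZ1 and 2 of cells given an equal volume of its solvent DMSO, all for 24 h. MZ1 is a degrader: its JQ1 end binds the bromodomains of BET proteins, and its other end recruits the VHL ubiquitin ligase, which marks them for the proteasome. No other agent or genetic change is named in the labels, and the results come from 1 cell line. Nothing in the labels ties the replicates to separate cultures, and the p-values then cover only the spread among these libraries, which may be technical.

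D cyclins bind CDK4 or CDK6, and the active kinase phosphorylates the pocket proteins RB1, RBL1 and RBL2 in the G1 phase. Pocket proteins hold back E2F transcription factors, and their phosphorylation releases the genes of S phase. INK4 inhibitors (CDKN2C, CDKN2D) bind the kinases CDK4 and CDK6 themselves, whereas CIP/KIP inhibitors (CDKN1A, CDKN1B) bind assembled cyclin-CDK complexes, among them those of CDK2. Cyclin D3 is the D cyclin on which expansion of B-cell precursors is known to depend most.

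The libraries held 14246367 to 16488005 counted reads. Levels are TMM-normalised CPM (counts scaled to library size), shares of a library, since no spike-in is named. A fall can therefore reflect less of the RNA per cell, fewer cells that carry it or a gain in share by other RNAs. A rise or an unchanged level likewise holds for the share only, since no amount of RNA per cell is given. Bulk samples cannot tell these apart. All 11 listed B-precursor markers were read, at a summed 4040 CPM in each DMSO library and 1380 and 1420 CPM in the MZ1 libraries (scaled to library totals). Their falls were unlike in size. DNTT went from 20363 and 20749 reads with DMSO to 1192 and 1306 with MZ1, and RAG1 from 1839 and 1886 to 1476 and 1619. The 6 myeloid markers summed to 5.64 and 6.81 CPM with DMSO and to 24.2 and 27.5 CPM with MZ1, but did not move as one. CSF1R went from 92 and 79 reads with DMSO to 14 and 12 with MZ1, CD14 from 7 and 10 to 107 and 93, ITGAM from 5 and 0 to 101 and 107, LYZ from 5 and 1 to 37 and 37, MPO from 0 and 0 to 141 and 96, and CSF3R from 0 and 3 to 0 and 0. Of the erythroid markers ALAS2 had 2 and 8 reads with DMSO and 38 and 32 with MZ1, and HBA1 0 and 0 against 10 and 5. Of the T-cell markers TRAC had 114 and 117 reads with DMSO and 0 and 0 with MZ1, and CD3D, CD3E, CD3G and CD2 were not analysed here. The part of these markers in the results below was not tested.

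Sequence before the transcription start is shown for the D cyclin and the kinase with the highest levels among the members. It is also shown for the inhibitor with the largest gain among those well covered by reads. The stretches come from RefSeq on GRCh38.p14, run 5′ to 3′ on the strand of the gene, and are numbered from the start, with the base before it at −1. For CCND3 (chr6:41941849-41942058, minus strand) and CDKN1A (chr6:36678560-36678657, plus strand) they cover the longest stretch before the start outside annotated exons, with the GC box GGGCGG or its reverse complement CCGCCC in capitals. CCND3 has 3 listed starts, and the stretch belongs to one of those with a GC box. For CDK4 (chr12:57752501-57752526 and chr12:57752396-57752421, minus strand) only the sites of the E-box CACGTG, the MYC and MAX motif, are shown, in capitals.
CCND3 upstream: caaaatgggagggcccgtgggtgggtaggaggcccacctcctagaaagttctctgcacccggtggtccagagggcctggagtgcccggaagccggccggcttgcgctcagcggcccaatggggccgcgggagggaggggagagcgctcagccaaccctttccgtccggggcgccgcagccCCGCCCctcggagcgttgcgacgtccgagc
CDK4 distal E-boxes: CACGTGtgatagcaacagatCACGTG
CDK4 proximal E-box: gggtggcggtCACGTGcccagaacgt
CDKN1A upstream: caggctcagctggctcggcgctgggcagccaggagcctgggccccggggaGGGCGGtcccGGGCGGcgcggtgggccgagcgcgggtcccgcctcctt

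The CDK4 window held the E-box at −216, −196 and −101. RefSeq windows of 250 bases before to 50 bases after a start existed for 9 members, 15 windows in all, with several starts for some genes and a start inside the gene for RB1. CCND1 had no entry. CACGTG, which reads the same on both strands, was found in 4 of the 15 windows, against 7.26% of all 35116 windows. These came from 3 members, CDK4, CDK6 and CDKN2C, the last at more than 1 start. The windows of all genes were not matched to those of the members for GC content. The GC box, searched on both strands with overlapping sites counted, was found in 10 of the 15 windows and in 45.0% of all windows. The E2F motif, read as TTTCGCGC or TTTGGCGC on either strand, was in 0 of the 15 and in 1.15% of all. These matches describe letters in a window and say nothing of binding.

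The group as a whole split. A gene was called when its adjusted p from the quasi-likelihood test of edgeR (Benjamini-Hochberg over all tested genes) was under 0.05. By this rule 8 of the 10 members were called, 4 higher and 4 lower with MZ1, against 84.2% of all tested genes called, 42.8% higher and 41.3% lower. At least 2-fold changes were seen for 3 of the raised and 3 of the lowered members, against 29.0% of all tested genes at least 2-fold higher and 26.2% at least 2-fold lower. The median log2 fold change (MZ1 over DMSO) was 0.01 for the members, 0.05 for all tested genes and −0.21 for the 12639 protein-coding ones, a class that holds all 10 members. Groups did not overlap for 8 of the 10 members and for 91.3% of all tested genes. These shares are near the background and are no result about the members, and the description below is of which genes moved and how far. An exact two-sided permutation of 2 libraries against 2 reaches at best p = 0.333, and every call depends on the variance that edgeR shares between genes.

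**Figure D1:**
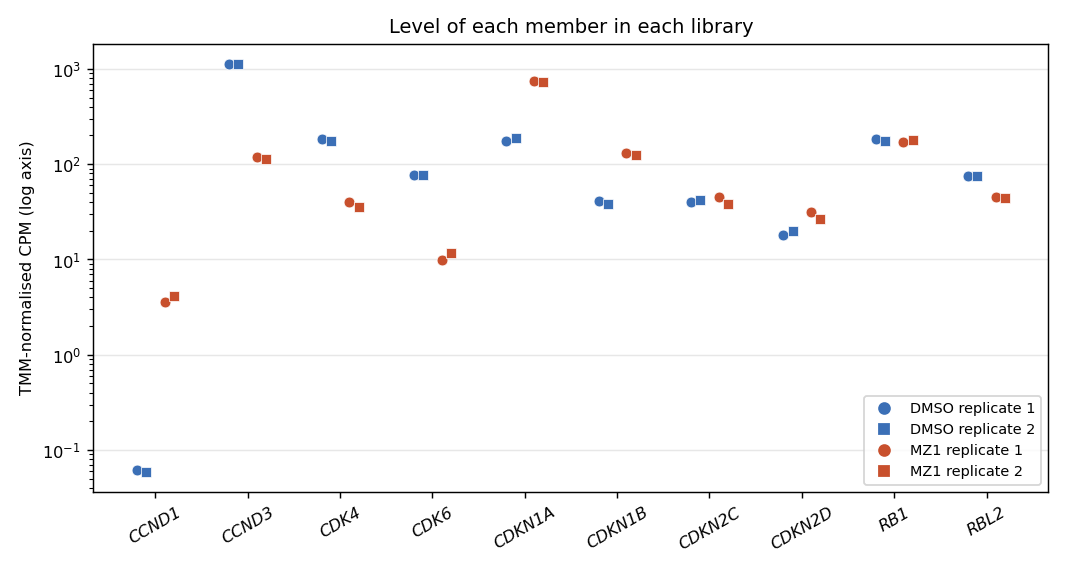
TMM-normalised CPM (log axis) of each member in the 2 DMSO libraries (blue) and the 2 MZ1 libraries (orange), with circles for replicate 1 and squares for replicate 2. The MZ1 points lie below the DMSO points for CCND3, CDK4, CDK6 and RBL2, above them for CCND1, CDKN1A, CDKN1B and CDKN2D, and among them for CDKN2C and RB1.

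The more abundant of the D cyclin genes analysed here fell. CCND3 (ENSG00000112576; chromosome 6, 41934933 to 42050357, minus strand), which encodes cyclin D3, stood at 1112 and 1114 CPM in the DMSO libraries and at 117.8 and 113.3 CPM in the MZ1 libraries. The DMSO values were nearly equal and far above both MZ1 values. The log2 fold change was −3.27 ± 0.04 (SE; edgeR adjusted p = 2.78e-27, n = 2 per group), a 9.63-fold fall, and only 4.36% of tested genes had a lower fold change. CCND3 was the most abundant member per exonic length with DMSO, at 192 ± 0.18 CPM per kb (SD, n = 2), above 99.0% of tested genes. With MZ1 it held 19.9 ± 0.55 CPM per kb, still above 88.0% of tested genes.

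CCND1 (ENSG00000110092; chromosome 11, 69641087 to 69654474), the gene of cyclin D1, was nearly silent with DMSO. It had 1 read in each DMSO library and 50 and 57 reads in the MZ1 libraries, or 3.54 and 4.12 CPM. The ratio of summed reads, scaled to the effective library sizes, was 63.7 with an exact 95% interval of 17.2 to 533. That interval covers counting error only. The groups did not overlap, and CCND1 was called higher (edgeR adjusted p = 8.66e-10). CCND1 passed the count filter only through its MZ1 libraries, so neither the call nor the lack of overlap adds support. Of its exonic length 10.3% is shared with LTO1, a gene on the opposite strand, and the strand setting of the counts is not given. LTO1 rose in the same libraries from 18.9 and 23.2 CPM to 83.0 and 76.3 CPM (log2 fold change 1.92 ± 0.08; edgeR adjusted p = 7.16e-17). Whether CCND1 reads include LTO1 reads was not tested.

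The rise of CCND1 did not make up for the fall of CCND3 in summed RNA level. Per exonic length CCND1 and CCND3 summed to 192 ± 0.18 CPM per kb with DMSO and 20.7 ± 0.46 with MZ1, a 9.26-fold lower sum. CCND1 made up 3.48% and 4.18% of this sum in the MZ1 libraries, against 0.0066% and 0.0064% in the DMSO libraries. CCND2, the remaining D cyclin gene, was not analysed here.

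Both kinase partners of the D cyclins fell. CDK4 (chromosome 12, 57747727 to 57756013, minus strand) stood at 182.8 and 177.0 CPM with DMSO and at 40.2 and 35.7 CPM with MZ1. CDK6 (chromosome 7, 92604921 to 92836594, minus strand) stood at 76.8 and 76.5 CPM with DMSO and at 9.83 and 11.6 CPM with MZ1. For each kinase both MZ1 libraries were low and both DMSO libraries high, with no overlap. CDK6 fell by 2.84 ± 0.09 on the log2 scale (SE; edgeR adjusted p = 7.4e-20) and CDK4 fell by 2.24 ± 0.06 (edgeR adjusted p = 2.7e-21).

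CDK4 shares 43.2% of its exonic length with TSPAN31, a tetraspanin gene on the opposite strand. TSPAN31 moved the other way, from 15.5 and 13.2 CPM to 48.6 and 45.7 CPM (log2 fold change 1.72 ± 0.10; edgeR adjusted p = 1.91e-14). Reads of the shared exons cannot be assigned without strand, and their part in the CDK4 value was not tested. The count of CDK6 is spread over 12260 exonic bases against 3168 for CDK4. Per length CDK4 was the more abundant kinase RNA in every library, with a CDK4 to CDK6 ratio of 9.20 and 8.95 with DMSO and 15.8 and 11.95 with MZ1.

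The CIP/KIP inhibitors rose. CDKN1A (p21; chromosome 6, 36676460 to 36687339), a broad inhibitor of cyclin-CDK complexes, stood at 174.2 and 186.8 CPM with DMSO and at 742 and 734 CPM with MZ1. CDKN1B (p27; chromosome 12, 12715058 to 12722371), an inhibitor known to accumulate in resting cells, stood at 40.9 and 38.1 CPM with DMSO and at 129.5 and 124.2 CPM with MZ1. Both MZ1 libraries were above both DMSO libraries for each gene. The log2 fold changes were 2.03 ± 0.04 for CDKN1A (SE; edgeR adjusted p = 3.09e-23) and 1.68 ± 0.06 for CDKN1B (edgeR adjusted p = 8.02e-19). CDKN1A was above 96.3% of tested genes per exonic length with DMSO and above 99.1% with MZ1.

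The INK4 inhibitors showed smaller differences. CDKN2D (p19; chromosome 19, 10566462 to 10569059, minus strand) stood at 18.1 and 19.8 CPM with DMSO and at 31.5 and 26.5 CPM with MZ1. Its MZ1 values lay above its DMSO values, and it rose by 0.61 ± 0.11 on the log2 scale (SE; edgeR adjusted p = 1.14e-05), a 1.53-fold change. CDKN2C (p18; chromosome 1, 50960745 to 50974633) stood at 40.3 and 41.8 CPM with DMSO and at 44.9 and 38.5 CPM with MZ1. These groups overlapped, with the MZ1 libraries on either side of the DMSO libraries, and the log2 fold change was 0.02 (95% interval −0.14 to 0.19; edgeR adjusted p = 0.787). Upper-quartile scaling gave CDKN2C a called rise of 0.30 (edgeR adjusted p = 0.00192), and a stricter filter on counts a called rise of 0.19 (edgeR adjusted p = 0.0283).

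The make-up of the inhibitor RNA shifted toward CDKN1A. Per exonic length the 4 inhibitors summed to 98.2 ± 3.4 CPM per kb with DMSO and 319 ± 6.9 with MZ1 (SD, n = 2 each), a 3.25-fold higher sum. CDKN1A made up 59.6% and 60.9% of it in the DMSO libraries and 75.1% and 76.6% in the MZ1 libraries. CDKN1B kept a share of 14.3 ± 1.2% with DMSO and 14.1 ± 0.11% with MZ1. The share of CDKN2C went from 12.6 ± 0.09% to 3.94 ± 0.34%, and that of CDKN2D from 12.8 ± 0.39% to 6.05 ± 0.61%.

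The pocket proteins differed from each other. RB1 (chromosome 13, 48303726 to 48599436), the retinoblastoma protein gene, stood at 182.3 and 173.3 CPM with DMSO and at 172.6 and 180.8 CPM with MZ1. The groups overlapped, and the log2 fold change was −0.01 (95% interval −0.11 to 0.09; edgeR adjusted p = 0.864). It turned to 0.26 and was called higher with upper-quartile scaling (edgeR adjusted p = 2.68e-05), and to 0.16 with the stricter count filter (edgeR adjusted p = 0.00322). Upper-quartile scaling moved the log2 fold changes of all genes up by a median of 0.27, and the stricter filter by 0.17.

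RBL2 (p130; chromosome 16, 53433977 to 53491649), the pocket protein that joins the DREAM repressor complex in resting cells, stood at 75.6 and 75.3 CPM with DMSO and at 45.6 and 44.6 CPM with MZ1. Both MZ1 libraries lay below both DMSO libraries. The log2 fold change was −0.74 ± 0.06 (SE; edgeR adjusted p = 5.94e-11), a 1.67-fold fall, with 18.2% of its exonic length shared with other genes. The RB1 to RBL2 ratio per exonic length was 2.74 and 2.61 with DMSO and 4.29 and 4.601 with MZ1.

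The order of levels changed between the groups. Per exonic length with DMSO it ran from CCND3 (192 CPM per kb) through CDKN1A (59.2), CDK4 (56.8), RB1 (27.6), CDKN1B (14.05), CDKN2D (12.6), CDKN2C (12.4), RBL2 (10.3) and CDK6 (6.255) to CCND1 (0.0124). The libraries of CDKN1A and CDK4 overlapped, as did those of CDKN2D and CDKN2C. With MZ1 the order of levels was CDKN1A (242 CPM per kb), CDKN1B (45.1), RB1 (27.4), CCND3 (19.9), CDKN2D (19.3), CDKN2C (12.6), CDK4 (11.99), RBL2 (6.16), CDK6 (0.873) and CCND1 (0.793). Here CCND3 overlapped with CDKN2D, CDKN2C with CDK4, and CDK6 with CCND1. CCND3 made up 49.1% of the summed level of the 10 genes in the DMSO libraries and 5.16% in the MZ1 libraries. These ranks and shares depend on the length used, here that of all annotated exons merged. For CCND3 this is 5802 bases, against 2394 in its longest annotated transcript. For CDKN1B the lengths are 2811 and 2657 bases. By longest transcript CCND3 would stand higher relative to the other members.

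Ratios between members within a library do not depend on how libraries are scaled to each other. CDKN1A and CDKN1B together stood at 0.374 and 0.390 of the summed CCND1 and CCND3 level per exonic length in the DMSO libraries. In the MZ1 libraries they stood at 13.75 and 13.98 times that level, a 36.3-fold change in a ratio chosen after its values were seen. Scaled by longest annotated transcript instead, it was 0.1985 and 0.2079 with DMSO and 7.516 and 7.675 with MZ1, a 37.4-fold change. The 4 inhibitors together stood at 1.498 and 1.62 times the summed CDK4 and CDK6 level with DMSO and at 24.0 and 25.7 times with MZ1. This ratio rose 15.9-fold, or 23.5-fold against CDK6 alone, which leaves out the exons shared by CDK4 and TSPAN31. CCND1 and CCND3 together stood at 2.998 and 3.09 times the summed level of the kinases with DMSO. With MZ1 they stood at 1.56 and 1.67 times that level, a ratio also chosen after its values were seen.

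**Figure D2:**
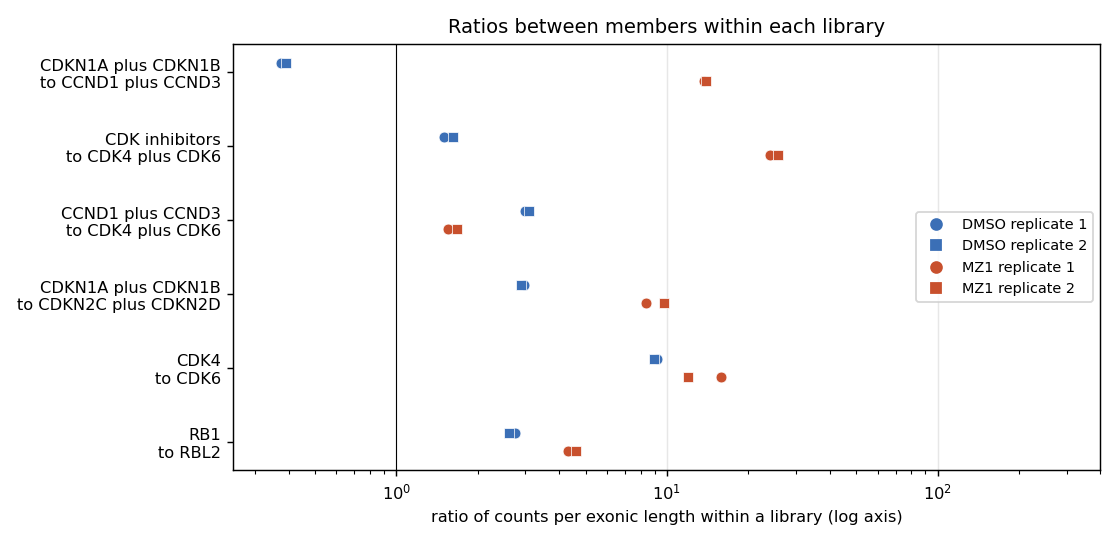
Ratios between members within each library (counts per exonic length, log axis), with the 2 DMSO libraries in blue and the 2 MZ1 libraries in orange. The ratio of CDKN1A plus CDKN1B to CCND1 plus CCND3 lies below 1 with DMSO (0.374 and 0.390) and above 1 with MZ1 (13.75 and 13.98). Scaled by longest annotated transcript the MZ1 values are 7.516 and 7.675.

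Other genes of the pathway were read from lists of related genes. Of the remaining D cyclin, inhibitor and pocket protein genes, 3 of 5 were tested, with 1 higher and 2 lower (median log2 fold change −0.95). All tested genes of these lists are protein-coding, a class in which 38.5% of tested genes were higher and 48.8% lower (median −0.21), against 42.8% and 41.3% of all tested genes (median 0.05). CDKN1C (p57), a CIP/KIP inhibitor, rose from 2.07 ± 0.33 to 7.14 ± 0.70 CPM (1.78 ± 0.24 on the log2 scale; edgeR adjusted p = 2.4e-07). CDKN2A, the INK4 gene of p16 and ARF, fell from 6.71 ± 1.4 to 1.93 ± 0.58 CPM (−1.79 ± 0.27; edgeR adjusted p = 1.02e-06). RBL1 (p107), a pocket protein, fell from 55.8 ± 3.0 to 28.9 ± 0.67 CPM (−0.95 ± 0.08; edgeR adjusted p = 2.57e-11). CDKN2B had 1, 0, 0 and 7 reads in the DMSO and MZ1 libraries and did not pass the count filter.

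Genes that act after the D cyclins are read against these shares. Of the genes of cyclins E and A, CDK2 and their activators 6 of 8 tested were lower (75.0%, against 48.8% of protein-coding genes) and 0 higher (median −0.61). None was higher at an unadjusted p below 0.05 in edgeR either, and 0 were called higher by DESeq2 or limma-voom, but 2 were with upper-quartile scaling and 1 with the stricter filter. CDC25A, the phosphatase that activates CDK2, fell from 113.5 ± 0.10 to 18.8 ± 1.6 CPM. CCNE1, cyclin E1, fell from 11.96 ± 1.5 to 2.15 ± 0.44 CPM. CDK2 fell from 117.6 ± 4.0 to 68.3 ± 2.8 CPM, with 16.8% of its exonic length shared with other genes.

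Partners of the pocket proteins in E2F and DREAM complexes counted 14 tested genes, of which 9 were lower (64.3%) and 3 higher (median −0.53). TFDP1, the dimer partner of E2F proteins, fell from 155.1 ± 0.05 to 38.6 ± 0.34 CPM, E2F1 from 171.2 ± 2.0 to 43.5 ± 5.1 CPM and MYBL2, which takes the place of pocket proteins in the complex, from 406.7 ± 6.0 to 125.4 ± 0.24 CPM. The genes of this list that rose were LIN54 (0.38 ± 0.07 on the log2 scale), LIN52 (0.46 ± 0.12) and LIN37 (1.33 ± 0.34), which encode parts of the MuvB core. Of the other MuvB genes, named after their values were seen, LIN9 fell from 42.2 ± 2.7 to 10.5 ± 0.97 CPM (edgeR adjusted p = 5.13e-15) and RBBP4 from 330.9 ± 6.4 to 241.1 ± 6.6 CPM (edgeR adjusted p = 4.01e-10). LIN37 shares 54.0% of its exonic length with other genes, and its call was lost without a count filter (edgeR adjusted p = 0.0567). The number called higher went to 5 under upper-quartile scaling. Of 18 G1/S genes that pocket proteins are known to repress, 17 were lower (94.4%) and 0 higher by edgeR, 0 also at an unadjusted p below 0.05 and by DESeq2 and limma-voom, but 1 was called higher with upper-quartile scaling (median −2.02). The helicase genes MCM6, MCM3 and MCM7 had log2 fold changes of −2.80, −2.80 and −2.13.

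**Figure D3:**
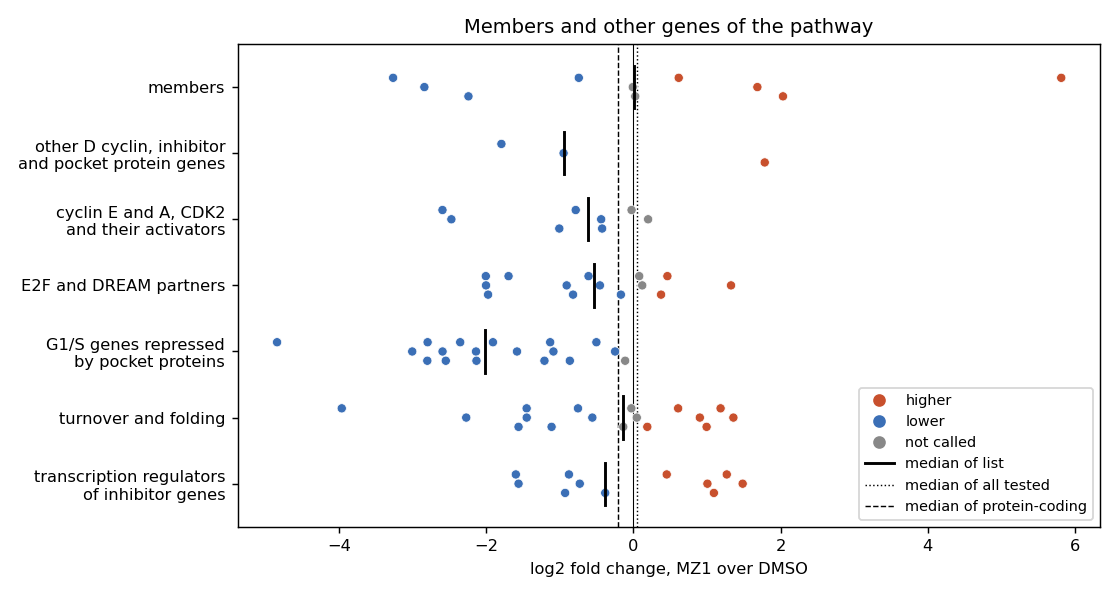
Log2 fold change (MZ1 over DMSO) of each tested gene in the member group and in 6 lists of related genes, coloured by call (adjusted p below 0.05, edgeR), with list medians as black bars and the medians of all tested genes (0.05) and of protein-coding genes (−0.21) as dotted and dashed lines. The G1/S list lies to the left, with a median of −2.02, and the members spread from −3.27 to 5.81.

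Of 17 genes for turnover and folding of D cyclins, CDKs and inhibitors 6 were higher (35.3%) and 8 lower (47.1%), with a median of −0.14. These shares are near those of protein-coding genes and are no result about the list. AMBRA1, the adaptor that targets D cyclins for degradation, rose from 51.9 ± 2.1 to 117.8 ± 5.2 CPM. GSK3B, a kinase that marks cyclin D1 for export and degradation, rose from 61.8 ± 2.5 to 158.5 ± 0.45 CPM. FBXW7, which targets cyclin E, rose from 231 ± 4.1 to 431.5 ± 0.70 CPM. FBXO4 and FBXO31, genes of this list named after their values were seen, did not rise. FBXO4 fell from 20.2 ± 2.3 to 1.29 ± 0.12 CPM (edgeR adjusted p = 2.12e-15), with 17 and 19 reads in the MZ1 libraries. FBXO31 went from 54.7 ± 0.20 to 49.6 ± 2.6 CPM and was not called (edgeR adjusted p = 0.0608). CUL4A, a scaffold of ligases that degrade CDKN1A and CDKN1B, fell from 195.2 ± 0.30 to 40.3 ± 0.75 CPM. The chaperone genes HSP90AB1 and HSP90AA1, whose proteins fold CDK4 and CDK6, fell by 1.45 ± 0.03 and 1.11 ± 0.04 on the log2 scale. CUL4B and CDC37, further genes of this list named after their values were seen, were not called. CUL4B went from 50.4 ± 1.4 to 52.0 ± 4.6 CPM (edgeR adjusted p = 0.567) and CDC37 from 199.1 ± 6.5 to 195.2 ± 1.4 CPM (edgeR adjusted p = 0.560).

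Of 11 transcription regulators of CDK inhibitor genes 5 were higher (45.5%) and 6 lower (54.5%), with a median of −0.38, shares that are likewise near the background. FOXO1, known to activate CDKN1B, rose from 64.0 ± 2.5 to 154.2 ± 0.58 CPM, and KLF6, known to activate CDKN1A, from 50.2 ± 2.0 to 107.2 ± 4.9 CPM. KMT2A, a histone methyltransferase that acts with menin at CDKN1B and CDKN2C, rose from 168.0 ± 1.1 to 470 ± 24 CPM, whereas MEN1, the gene of menin, fell from 84.7 ± 0.68 to 44.5 ± 0.93 CPM. TFAP4, a repressor of CDKN1A, fell from 53.0 ± 1.6 to 17.5 ± 0.72 CPM. Further genes of this list, named after their values were seen, went both ways. SP1 fell from 155.5 ± 1.5 to 93.8 ± 1.1 CPM and ZBTB17 from 38.3 ± 3.8 to 29.4 ± 0.75 CPM, whereas FOXO3 rose from 23.9 ± 0.16 to 48.0 ± 0.58 CPM. The part of these regulators in the levels of the inhibitors was not tested.

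The 12 alternative settings changed the scaling, the filter, the test or the libraries used. Each call of the 8 changed members held in those that kept all 4 libraries, and each sign held in all 12. For CCND1, which passed the count filter only through its MZ1 libraries, this adds no support. Across the 12 settings the log2 fold change ranged from −3.34 to −2.996 for CCND3 and from −2.96 to −2.57 for CDK6. For CDK4 the range was −2.33 to −1.97 and for RBL2 −0.82 to −0.47. It ranged from 1.94 to 2.30 for CDKN1A, from 1.596 to 1.96 for CDKN1B and from 0.49 to 0.89 for CDKN2D.

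**Figure D4:**
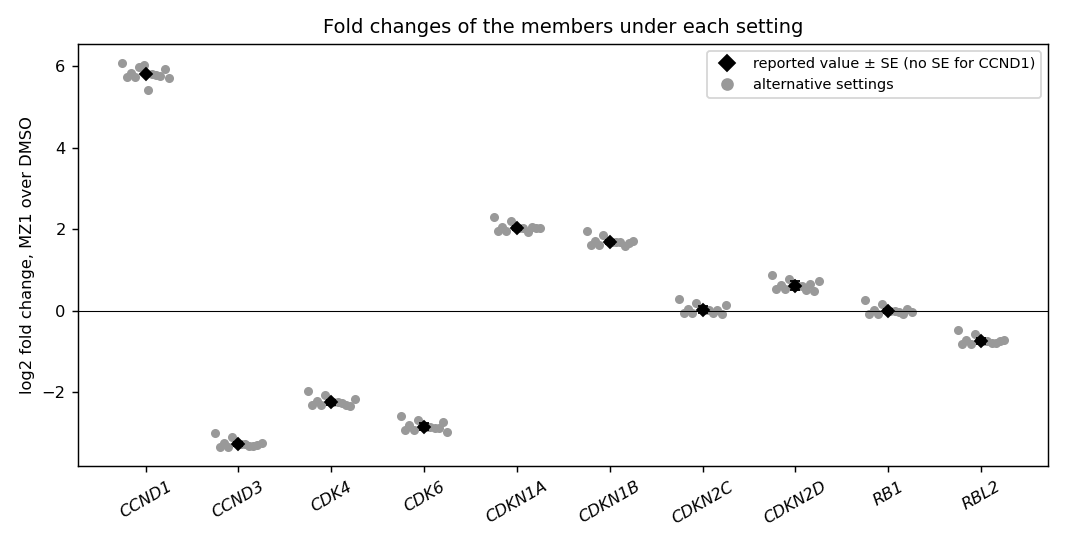
Log2 fold change of each member as reported (black diamonds, with SE bars except for CCND1) and under the 12 alternative settings (grey). RB1 and CDKN2C lie on both sides of 0, from −0.09 to 0.26 and from −0.09 to 0.30, and the other 8 members keep their sign. For CCND1, which passed the count filter only through its MZ1 libraries, this adds no support.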

How the data were processed

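RNA-seq of 4 libraries was analysed. Raw read counts, 1 value per Ensembl gene and library, were deposited by the authors, per the file headers. The submitters' processing notes name HISAT2 2.2.0 and the build hg38. The sources used here do not give the counting program, the annotation or the strand setting. All 28814 IDs matched GENCODE release 29 (GRCh38), which gave positions, merged exonic lengths and overlaps, and 28597 had a symbol. Genes kept by filterByExpr were scaled with TMM and tested with glmQLFit and glmQLFTest of edgeR 4.0.16 (R 4.3.3), with treatment as the only term. Intervals of log2 fold changes use the moderated degrees of freedom. Alternatives used DESeq2 1.42.0, limma 3.58.1, other scalings and filters, a replicate block, and each library left out. Replicates differed by more than sampling noise (chi-square of 2.44 per degree of freedom within DMSO and 2.17 within MZ1), and each counts once.

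The members and lists were chosen with earlier results of these data known. Named genes are all members, all genes of lists of 6 or fewer, for longer lists up to 3 higher and 3 lower genes by smallest adjusted p, genes sharing at least 10% of a member's exons, neighbours, and genes of most similar level. A few genes that the rule or marker lists cover are not reported here. Simulated counts for MZ1 against DMSO (16219 genes) gave back 33.3% of 1.25-fold, 63% of 1.5-fold, 72.3% of 2-fold and 95.7% of 4-fold changes. There were 5 false calls among 129. Only 46 to 48 tested genes were changed at each fold, whereas 84.2% of tested genes were called in the data. These rates therefore need not hold for the data.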

Additional observations from a re-analysis of the deposited data

How the results depend on the processing

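Of 16862 genes 7222 were higher and 6969 lower. Fits that left out 1 library reran the count filter and tested other sets of genes, so their counts over all genes are not compared with these. Of the members 4 were higher and 4 lower, and the 12 alternatives gave 4 lower throughout and 4 higher except for 6 with upper-quartile scaling and with the stricter count filter, which add RB1 and CDKN2C. RB1 turned from −0.01 to 0.26 with upper-quartile scaling and to 0.16 with the stricter count filter (50 reads in each library of a group, 12509 genes), settings whose median shift over all genes was 0.27 and 0.17. The labels share replicate numbers but do not say what they mean. With the replicate block 7107 genes were higher and 6856 lower and the members' counts were again 4 and 4, and deviations of same-numbered libraries had a correlation of 0.01 across genes, so the numbers were not taken as pairs. Of the ratios within a library, that of the inhibitors to CDK4 plus CDK6 rose 15.9-fold by exonic length, 17.6-fold in counts with no length scaling and 23.5-fold without CDK4. The ratio of CCND1 plus CCND3 to the kinases was 0.53 of its DMSO value, or 0.566 with no length scaling. Ratios other than those of CCND3 to CCND1, CDK4 to CDK6 and inhibitors to kinases were chosen after seeing the data. Depth limits CCND1, CDKN2B, CDKN2A, CDKN1C, CCNE1, LIN37 and FBXO4, which had few reads in a group.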

Other observations

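Genes beside the members on the chromosome changed in both directions. The nearest tested protein-coding gene on each side, by gene midpoint, was taken for the 8 called members, 16 genes in all. Of these 7 were called in the member's direction, 4 in the other direction and 5 not at all. The background was 38.5% of protein-coding genes higher and 48.8% lower, and 42.8% and 41.3% of all tested genes. LTO1 beside CCND1 and TSPAN31 beside CDK4 share exons with the member. BYSL, a ribosome assembly gene that lies 1.9 kb from CCND3, stood at 81.6 CPM with DMSO and 9.55 CPM with MZ1, a fold change on the log2 scale of −3.09 beside −3.27 for CCND3. TAF8, 0.2 kb from the other end of CCND3, fell from 50.5 to 40.5 CPM (−0.32 on that scale). APOLD1, 3.5 kb from CDKN1B, rose from 13.1 to 89.9 CPM (2.77), and RAB44, 10.5 kb from CDKN1A, from 0.238 to 9.61 CPM, where the DMSO level rests on 2 and 6 reads. FAF1, which lies 0.5 kb from CDKN2C, fell by 1.16 on the log2 scale while CDKN2C stood at 0.02. KRI1 and SLC44A2, on either side of CDKN2D, had log2 fold changes of −0.01 and 0.04 and were not called.

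The protein-coding genes with levels most like those of CCND3 over the 4 libraries were DNTT, HSPD1 and HNRNPD, at Euclidean distances of 0.589, 0.664 and 0.691 in log2 CPM. For CDKN1A they were PCBP2, OGA and KDM5B, at distances of 0.248, 0.266 and 0.337. With 2 groups of 2 libraries this likeness reflects a similar level and a similar fold change only.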
